A study of Callithrix jacchus with 4 samples.

Results

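The 8 genes near Alzheimer risk loci followed here in marmoset frontal cortex act in endocytosis, endosomal sorting and cell adhesion: BIN1, PICALM, CD2AP, SORL1, PTK2B, FERMT2, CASS4 and RIN3. They were chosen by gene symbol from a table of read counts, and all 8 were found among its 35108 genes. In the series, RNA from the frontal cortex of adult animals of the common marmoset, Callithrix jacchus, was sequenced. Of 4 libraries, 2 are labelled WT and 2 are labelled as carrying an APP transgene. The series title describes mutant APP, the gene of the amyloid precursor protein, under the human EF1α promoter, a promoter active in most cell types and not restricted to neurons. Libraries are called WT1, WT2, TG1 and TG2 below. The labels give both transgenic libraries as female and no sex for the wild type, and they name no litter, batch or treatment. Whether each library is from its own animal is not stated, so the p-values measure only the spread between these libraries, which for the transgenic pair may be technical.

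Endocytosis carries membrane proteins such as the amyloid precursor protein from the cell surface into endosomes, where they meet the secretases that cut them, and sorting receptors then send them back to the Golgi and surface or on to lysosomes. Clathrin adaptors, membrane-bending proteins and the GTPase RAB5 drive the first steps, and the retromer coat drives the return route. Focal adhesions are the sites where integrins, kindlins, talins and tyrosine kinases tie the cytoskeleton to the matrix, and in neurons the same proteins act at synapses.

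Total counts ranged from 12657323 in WT1 to 18932180 in TG2. Library pairs that include TG2 differed more over all genes (37.6 to 48.1 in chi-square divided by its degrees of freedom) than the other pairs (7.62 to 12.9), and TG2 is set apart in several results here. Counts of KDM5D, a Y-linked gene, were 2 in WT1, 243 in WT2 and 0 in TG1 and TG2. WT1 and WT2 are therefore not the same animal, and sex and genotype cannot be fully told apart. Markers of neurons, astrocytes and oligodendrocytes were present in all 4 libraries. APP itself, the check of the transgene, was at 1822 and 2182 CPM (counts scaled to a common library size, with TMM factors) in WT1 and WT2 and at 2143 and 2748 CPM in TG1 and TG2. The groups overlapped, and whether transgene reads count toward this gene was not tested.

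The question here is whether these risk genes differ in level between transgenic and wild-type cortex. By the quasi-likelihood test of edgeR, none of the members had an adjusted p of at most 0.05 (0 of 7 tested), beside 0% of all 16385 genes tested. At an unadjusted p under 0.05 the count was also 0 of 7, beside 5.62% of all genes. DESeq2 called 0 of the 8 members and limma-voom 0 of 7. CASS4 was taken out by the filter on low counts. Of the 7 tested, 3 had a fitted difference above 0 and 4 below, with a median log2 fold change of -0.08, against -0.0022 over all genes tested. The fitted log2 fold changes of all members lay between -0.36 (FERMT2) and 0.45 (PTK2B). In 1 of 7 members, PICALM, both transgenic libraries lay above both wild-type libraries, which 19.5% of all genes did, and in none did both lie below, which 19.4% of all genes did.

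**Figure D1:**
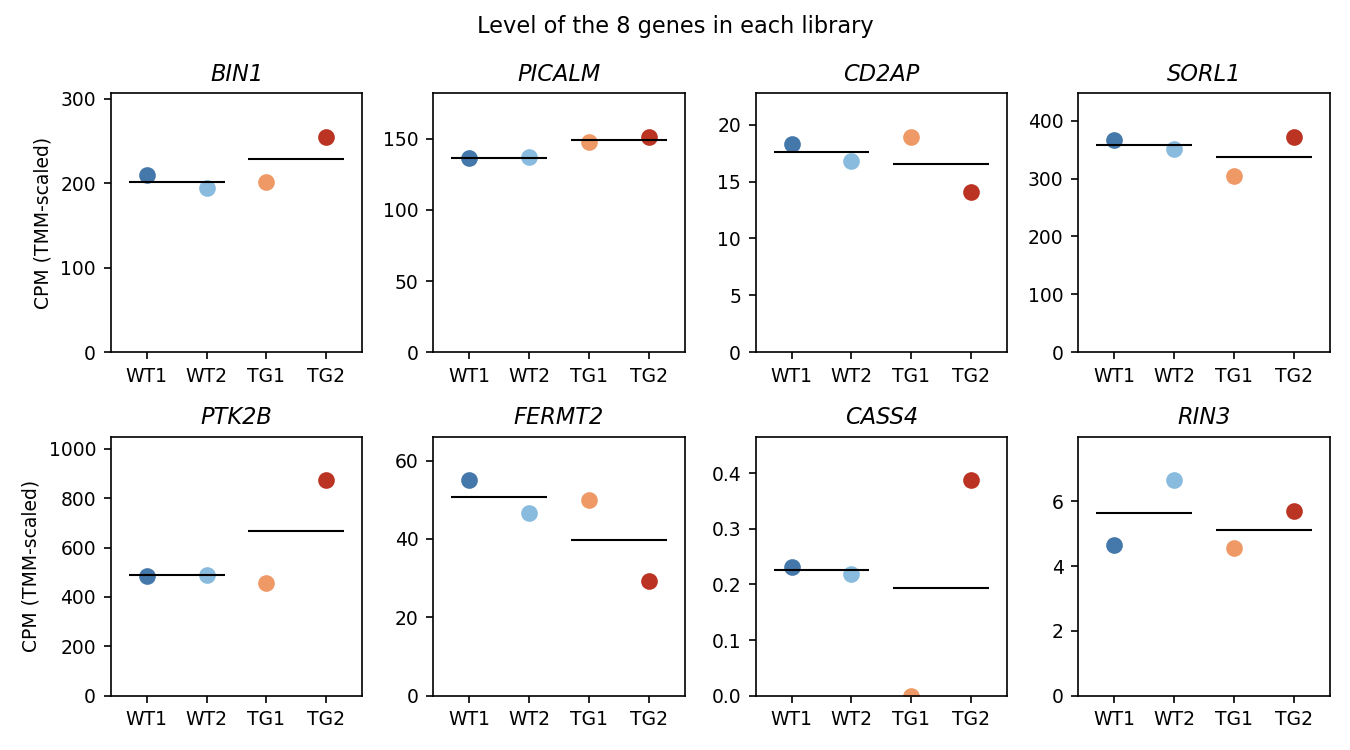
Level of each of the 8 genes in CPM on TMM-scaled library sizes (vertical axes from 0, a separate scale for each gene) in wild-type libraries WT1 and WT2 and transgenic libraries TG1 and TG2. Points are single libraries and lines are group means (n = 2). TG2 stands above the other libraries for PTK2B and BIN1 and below them for FERMT2 and CD2AP, and CASS4 is near the limit of detection in all 4.

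Among the members that build and shape endocytic vesicles, PICALM was the one with separated groups and small spread. PICALM encodes a clathrin assembly protein that binds membrane lipids and the AP2 adaptor. It was at 136 and 137 CPM in WT1 and WT2 and at 148 and 152 CPM in TG1 and TG2. Both transgenic values lay above both wild-type values, and the libraries of each group were close together. The fitted log2 fold change was 0.13 ± 0.11 (SE, 2 libraries per group, adjusted p = 0.81 in edgeR), with a 95% interval from -0.16 to 0.42. That interval holds folds from 0.896 to 1.34, so larger changes of this gene in either direction lie outside it. Leaving out each library in turn gave values from 0.11 to 0.15. With library totals without scaling the value was lower, at 0.084.

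BIN1 encodes a protein of the amphiphysin family with a BAR domain that senses and bends membrane, and in cortex it is made by neurons, oligodendrocytes and microglia. It was at 209 and 194 CPM in WT1 and WT2 and at 202 and 255 CPM in TG1 and TG2. TG1 lay between the wild-type libraries and TG2 lay above all others. The estimate was a log2 fold change of 0.18 ± 0.16 (SE, 2 libraries per group, adjusted p = 0.81 in edgeR). Without TG2 it was -0.0024, and without TG1 it was 0.34, where it did not pass (adjusted p = 0.17). Oligodendrocyte markers lay on the other side of wild type in TG2: the median of 10 markers was 1.36 below the wild-type mean on the log2 scale there, while BIN1 was 0.34 above it. In bulk tissue, fewer cells of a type and less RNA per cell cannot be told apart.

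CD2AP encodes an adaptor that ties membrane receptors and endosomes to the actin cytoskeleton. Its level was 18.3 and 16.8 CPM in WT1 and WT2 and 19.0 and 14.1 CPM in TG1 and TG2. The transgenic libraries were the highest and the lowest of the 4, so the groups overlapped fully. This gave a log2 fold change of -0.09 ± 0.23 (SE, 2 libraries per group, adjusted p = 0.92 in edgeR), and it was 0.11 without TG2 and -0.32 without TG1. With 230 to 258 counts per library, counting error alone was 6.23% to 6.59% of a value.

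RIN3 activates RAB5 as a guanine nucleotide exchange factor, and its protein is known to bind BIN1 and CD2AP. It had 60 and 91 counts in WT1 and WT2 and 62 and 103 counts in TG1 and TG2, or 4.64 and 6.66 CPM and 4.56 and 5.70 CPM. Within each group the libraries differed more than the group means did. The fitted log2 fold change was -0.14 ± 0.32 (SE, 2 libraries per group, adjusted p = 0.92 in edgeR), and it was -0.38 without WT1, 0.15 without WT2, 0.011 without TG1 and -0.31 without TG2. The 95% counting intervals of the 4 libraries (exact Poisson, counting error only) lay between 3.49 and 8.17 CPM. The fitted difference was smaller than its SE, which includes the spread between libraries as well as counting error. What size of difference could be detected was not tested.

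SORL1, the sorting receptor that binds the amyloid precursor protein and hands it to retromer for return to the Golgi, was at 366 and 350 CPM in WT1 and WT2 and at 304 and 373 CPM in TG1 and TG2. TG1 was the lowest of the 4 libraries and TG2 the highest. On the log2 scale the fitted fold change was -0.08 ± 0.15 (SE, 2 libraries per group, adjusted p = 0.89 in edgeR), with a 95% interval from -0.47 to 0.30. Without TG2 the value was -0.24 and without TG1 it was 0.055. The 2 transgenic libraries differed by 0.29 on the log2 scale, with a counting error of 0.029, and 49.5% of all genes tested differed between these libraries by at least as much.

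Of the adhesion members, PTK2B had the widest spread between transgenic libraries. PTK2B encodes PYK2, a tyrosine kinase related to focal adhesion kinase that is switched on by calcium and is abundant in forebrain neurons. It was at 485 and 491 CPM in WT1 and WT2 and at 457 and 873 CPM in TG1 and TG2. TG1 was the lowest library of the 4, and TG2 was 1.91-fold above TG1. The wild-type libraries differed by 0.015 on the log2 scale and the transgenic ones by 0.93, with a counting error of 0.022. A difference of at least that size between TG1 and TG2 was found in 12.5% of all genes tested. In the fit, the log2 fold change was 0.45 ± 0.31 (SE, 2 libraries per group, adjusted p = 0.80 in edgeR), and the 95% interval ran from -0.34 to 1.24. Without TG2 the value was -0.097. Without TG1 it was 0.84 ± 0.13 and PTK2B passed as higher (adjusted p = 0.0070 in edgeR), in a fit that sets TG2 alone against the wild-type pair and assumes that it varies as they do. That fit called 9.92% of all genes tested.

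FERMT2 encodes kindlin-2, which binds the tails of β integrins and helps talin to switch them on, and in cortex it is known mainly from astrocytes. It was at 55.0 and 46.6 CPM in WT1 and WT2 and at 49.98 and 29.2 CPM in TG1 and TG2. TG1 lay between the wild-type libraries and TG2 lay below all others, 1.71-fold below TG1. The fitted log2 fold change was -0.36 ± 0.28 (SE, 2 libraries per group, adjusted p = 0.80 in edgeR), with a 95% interval from -1.07 to 0.35. It was -0.027 without TG2. Without TG1 it was -0.80 ± 0.18 and FERMT2 passed as lower (adjusted p = 0.031 in edgeR), again with TG2 alone against the wild-type pair. A difference between TG1 and TG2 at least as large as that of FERMT2 was found in 16.6% of all genes tested.

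CASS4, a scaffold of the CAS family on which adhesion kinases dock, was close to the limit of detection. It had 3 counts in WT1, 3 in WT2, 0 in TG1 and 7 in TG2. The 7 counts of TG2 correspond to 0.388 CPM with a 95% counting interval from 0.156 to 0.799 CPM (exact Poisson), and the 3 counts of WT1 to 0.232 CPM with an interval from 0.0479 to 0.678 CPM. A count of 0 in TG1 allows a level of up to 0.220 CPM (3 counts), and the exact interval used for the other libraries reaches 0.271 CPM there. The libraries cannot be ordered at this depth, and no fold change is given.

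**Figure D2:**
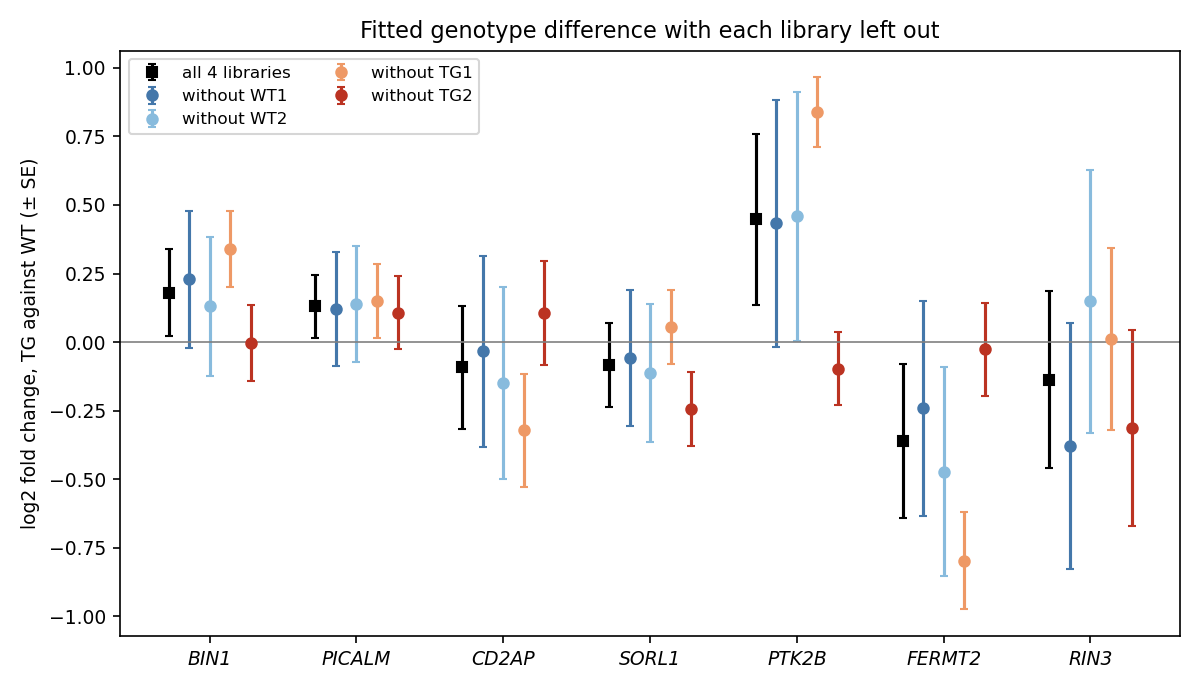
Fitted log2 fold change of transgenic against wild type (vertical axis, with SE bars) for the 7 members tested, from all 4 libraries (squares) and with each library left out (circles). PTK2B moves from -0.097 without TG2 to 0.84 without TG1 and FERMT2 from -0.027 to -0.80, while the PICALM values lie between 0.11 and 0.15.

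Cell type markers of TG2 stood apart along with PTK2B and FERMT2. Of 10 astrocyte markers, 9 had a fitted difference below 0, and their summed level was 6973 to 8324 CPM in the WT pair against 7489 and 2617 CPM in TG1 and TG2. The median marker was 1.63 below the wild-type mean in TG2 on the log2 scale and 0.013 below it in TG1, while FERMT2 was 0.79 and 0.019 below. Of 10 oligodendrocyte markers, 9 had a fitted difference below 0, with a summed level of 2639 to 3333 CPM in the WT pair against 3300 and 1202 CPM in TG1 and TG2. None of these 20 markers was at 0 in any library. The part of either marker group in the results for FERMT2 and BIN1 was not tested.

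Microglia markers, of interest for BIN1, PTK2B, CASS4 and RIN3, were low in both transgenic libraries. Of 12 markers, 11 had a fitted difference below 0, and their summed level was 227 to 272 CPM in the WT pair against 145 and 134 CPM in TG1 and TG2, with no marker at 0. At an adjusted p of at most 0.05, edgeR called 0 of the 12, beside 0% of all genes tested. DESeq2 called 1 of the 12, beside 0.205% of all genes. The median marker was 0.86 and 0.79 below the wild-type mean in TG1 and TG2. RIN3 was 0.28 below its wild-type mean in TG1 and 0.036 above it in TG2. Excitatory neuron markers, 5 of 7 above 0, summed to 5343 to 6408 CPM in wild type and to 5588 and 6034 CPM in TG1 and TG2. By this sum TG2 lay within the wild-type range. The median marker deviated from the wild-type mean by -0.1209 in WT1, 0.1209 in WT2, -0.0035 in TG1 and 0.1224 in TG2, the highest of the 4. PTK2B was 0.84 above its wild-type mean in TG2. Inhibitory neuron markers, 6 of 7 above 0 with a median log2 fold change of 0.29, summed to 652 and 671 CPM in WT1 and WT2 and to 767 and 840 CPM in TG1 and TG2, with no marker at 0. In 5 of these 7 markers, as in PICALM, TG1 and TG2 were both higher than WT1 and WT2, and in 1 both were lower, beside 19.5% and 19.4% of all genes tested. Endothelial markers, 8 of 9 below 0, summed to 227 to 304 CPM in wild type and to 182 and 150 CPM in TG1 and TG2. Separation was not limited to inhibitory neurons. TG1 and TG2 were both lower than WT1 and WT2 in 6 of 9 endothelial, 6 of 12 microglia and 4 of 10 astrocyte markers. They were both higher in 0 of each. Of 7 excitatory neuron markers, 1 was separated upward and 2 downward, and of 10 oligodendrocyte markers 0 either way. The part of these cell types in the members' values was not tested.

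**Figure D3:**
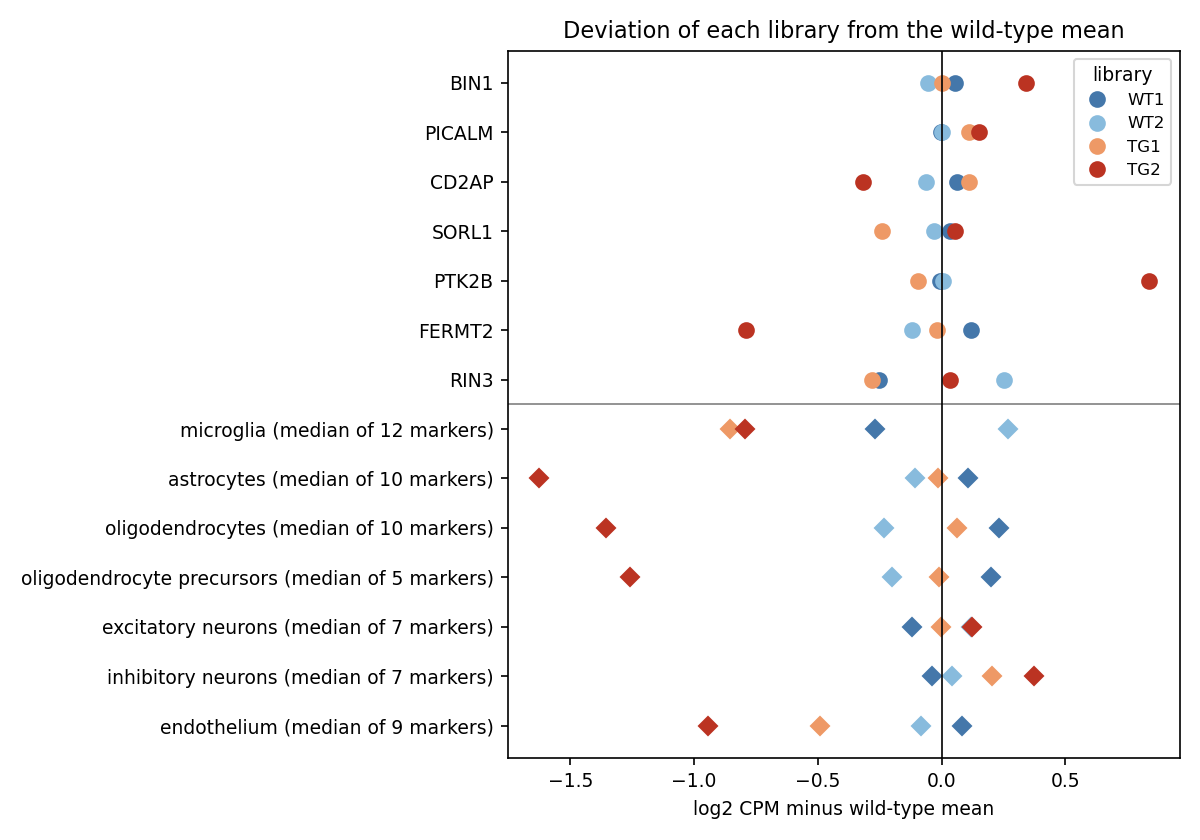
Deviation of each library from the wild-type mean, in log2 CPM (horizontal axis), for the 7 members tested (circles) and for the median marker of 7 cell types (diamonds). In TG2 the astrocyte and oligodendrocyte medians lie at -1.63 and -1.36, FERMT2 at -0.79 and PTK2B at 0.84, whereas TG1 lies near the wild-type mean for those genes and markers.

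The closest relatives of the members were examined next. PTK2, focal adhesion kinase, was at 122 and 114 CPM in WT1 and WT2 and at 121 and 146 CPM in TG1 and TG2 (log2 fold change 0.17 ± 0.14 SE, adjusted p = 0.81 in edgeR). Counts of PTK2B per count of PTK2, a ratio within a library that does not depend on library scaling, were 3.97 and 4.30 in wild type and 3.79 and 5.99 in TG1 and TG2. The ratio was thus highest in TG2 and lowest in TG1. No ratio was part of the planned comparisons, and it was not tested. AMPH, the amphiphysin of nerve terminals and relative of BIN1, was at 190 and 193 CPM in WT1 and WT2 and at 208 and 292 CPM in TG1 and TG2. Both transgenic values lay above both wild-type values (log2 fold change 0.38 ± 0.19 SE, adjusted p = 0.79 in edgeR). The counts of BIN1 per count of AMPH were 1.10 and 1.003 in wild type and 0.970 and 0.872 in TG1 and TG2, a ratio chosen after the values were seen and not tested.

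SNAP91 encodes AP180, the neuronal relative of PICALM. It was at 449 and 460 CPM in WT1 and WT2 and at 459 and 544 CPM in TG1 and TG2, so the groups overlapped. Counts of PICALM per count of SNAP91 were 0.304 and 0.298 in WT1 and WT2 and 0.321 and 0.279 in TG1 and TG2. Relative to SNAP91, PICALM was thus highest in TG1 and lowest in TG2, and this ratio was not tested. Among the other VPS10-domain sorting receptors, SORT1 (sortilin) was at 420 and 404 CPM in the WT pair against 443 and 499 CPM in TG1 and TG2. SORCS2 was at 70.6 and 62.7 CPM in the WT pair against 61.4 and 38.3 CPM in TG1 and TG2, and SORCS3 at 36.3 and 40.4 CPM and at 36.3 and 66.0 CPM. The receptors of the SORL1 family thus did not share 1 pattern: SORT1 was higher and SORCS2 lower in both transgenic libraries, SORCS3 stood apart in TG2, and SORCS1 overlapped between groups. None of them passed (adjusted p from 0.79 to 0.97 in edgeR).

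NEDD9, a CAS scaffold like CASS4 that docks focal adhesion kinase, had the smallest p of the relatives. It was at 15.6 and 14.2 CPM in WT1 and WT2 and at 26.1 and 41.6 CPM in TG1 and TG2. Both transgenic libraries lay above both wild-type libraries, TG2 by more. The estimate was a log2 fold change of 1.19 ± 0.27 (SE, n = 2 per group), with an unadjusted p of 0.0058 and an adjusted p of 0.79 in edgeR's test and of 0.083 in DESeq2. BCAR1, the founding member of this family, overlapped between groups at 45.9 and 57.2 CPM in the WT pair against 64.6 and 56.3 CPM in TG1 and TG2. EFS was at 10.1 and 6.29 CPM in the WT pair against 9.77 and 1.38 CPM in TG1 and TG2. TG1 thus lay within the wild-type range for EFS, and TG2 below it. RIN2, the relative of RIN3, was at 18.0 and 20.3 CPM in the WT pair against 15.2 and 12.1 CPM in TG1 and TG2, lower in both (log2 fold change -0.49 ± 0.21 SE, adjusted p = 0.79 in edgeR). RIN1 was at 8.67 and 7.75 CPM in the WT pair against 10.8 and 9.03 CPM in TG1 and TG2. The RIN relatives that activate RAB5 thus lay on opposite sides of wild type. SH3KBP1, the relative of CD2AP, was at 57.0 and 57.6 CPM in the WT pair against 57.3 and 50.1 CPM in TG1 and TG2. BIN3 overlapped between groups, at 14.9 to 19.2 CPM, and FERMT1 had 3 counts in WT1 and TG1 and was not tested.

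Other genes of the same pathways were taken from 7 lists with 138 genes tested, chosen with earlier results of these data known. By edgeR's test and by DESeq2, 0 of them had an adjusted p of at most 0.05. At an unadjusted p under 0.05 there were 2 higher, TLN2 and NEDD9, and 1 lower, SYNJ2, beside 3.23% and 2.39% of all genes tested.

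Of 29 genes of clathrin-coated vesicles, 17 had a fitted difference above 0 and 12 below, and the median log2 fold change was 0.08 (0.0013 without TG2). SGIP1, which regulates endocytosis in neurons, was at 187 and 211 CPM in the WT pair against 230 and 288 CPM in TG1 and TG2. HIP1, a clathrin and actin linker, was at 51.5 and 35.4 CPM in the WT pair against 33.9 and 22.1 CPM. DAB2, a cargo adaptor, was at 12.8 and 14.7 CPM in the WT pair against 15.8 and 24.0 CPM. Groups were separated upward in 6 and downward in 2 of the 29, beside 19.5% and 19.4% of all genes tested.

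Among 16 genes of membrane bending and scission, 10 were above 0 and 6 below, and the median log2 fold change was 0.16 (0.021 without TG2). SYNJ2, a phosphoinositide phosphatase, was at 91.3 and 84.3 CPM in the WT pair against 71.2 and 65.2 CPM in TG1 and TG2 (log2 fold change -0.36 ± 0.13 SE, adjusted p = 0.79 in edgeR). SH3GL3, an endophilin, was at 57.6 and 55.5 CPM in the WT pair against 64.8 and 69.3 CPM. In this list 6 of 16 genes were separated upward and 2 downward, beside 19.5% and 19.4% of all genes tested.

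Retromer and endosomal sorting genes split nearly evenly, 13 above 0 and 11 below among 24, with a median log2 fold change of 0.0041. Its sign was negative with library totals without scaling (-0.042), with a stricter count filter, and without WT1, WT2 or TG2, the lowest being -0.053 without TG2. The sorting nexins SNX1 and SNX3, which act with retromer, were lower in both transgenic libraries: SNX1 at 91.3 and 85.3 CPM in the WT pair against 74.9 and 70.6 CPM, and SNX3 at 179 and 193 CPM and 169 and 127 CPM. PACS1, a sorting adaptor, was at 64.8 and 68.9 CPM in the WT pair against 73.9 and 88.4 CPM. Groups were separated upward in 5 and downward in 7 of the 24 genes, beside 19.5% and 19.4% of all genes tested.

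RAB5 and other endosomal GTPases and their regulators gave 12 above 0 and 7 below among 19, with a median of 0.040 (-0.0082 with library totals without scaling and -0.013 without WT1). RAB5C was at 135 and 129 CPM in the WT pair against 123 and 108 CPM in TG1 and TG2. RAB31, an endosomal GTPase, was at 91.9 and 93.2 CPM in the WT pair against 91.0 and 49.8 CPM, low in TG2 alone. Of the 14 partners of CD2AP and genes of actin filament ends, 7 were above 0 and 7 below, and the median was 0.024 (-0.026 with library totals without scaling and below 0 without WT1, TG1 or TG2, the lowest -0.041 without WT1). The Arp2/3 subunit gene ARPC5 was at 72.0 and 76.4 CPM in the WT pair against 81.9 and 101 CPM, and ARPC3 at 76.8 and 75.8 CPM and at 78.0 and 98.6 CPM. CARMIL1, which regulates capping protein, was at 43.5 and 36.9 CPM in the WT pair against 37.9 and 22.2 CPM.

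Integrin adhesion genes, the partners of FERMT2, had the lowest median of the 7 lists. Of 19 tested, 13 were below 0 and 6 above, with a median log2 fold change of -0.35, and in 10 of them TG1 and TG2 were both lower than WT1 and WT2 and in 3 both higher, beside 19.4% and 19.5% of all genes tested. Set against the wild-type mean, the median gene deviated by -0.11 in TG1 and -0.45 in TG2, and the median log2 fold change was -0.11 without TG2. ITGA6, an integrin α chain, was at 41.1 and 30.3 CPM in the WT pair against 26.2 and 26.1 CPM in TG1 and TG2. TLN2, the talin of brain, lay on the other side, at 142 and 139 CPM in the WT pair against 167 and 202 CPM (log2 fold change 0.39 ± 0.14 SE, adjusted p = 0.79 in edgeR). ITGA3 was at 16.7 and 15.9 CPM in the WT pair against 19.5 and 30.8 CPM. Markers of several cell types were low in TG2 along with this list. Beside the astrocyte and oligodendrocyte medians given above, the median of 5 oligodendrocyte precursor markers was -1.26 from the wild-type mean in TG2 and -0.0098 in TG1, and that of 5 pericyte and smooth muscle markers -1.01 and 0.030. The median of 9 endothelial markers was -0.94 in TG2 and -0.49 in TG1. The summed level of the precursor markers was 262 and 192 CPM in WT1 and WT2 and 241 and 113 CPM in TG1 and TG2, while that of the pericyte and smooth muscle markers was 198 to 207 CPM in the WT pair against 205 and 211 CPM in TG1 and TG2. Leptomeningeal fibroblast markers differed widely within each group. Their sum was 27.3 and 152 CPM in WT1 and WT2 and 195 and 33.9 CPM in TG1 and TG2. No precursor, pericyte or endothelial marker was at 0, and the part of all these cell types in the list was not tested.

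Among 17 genes of focal adhesion kinases, CAS scaffolds and their substrates, 11 were above 0 and 6 below, with a median of 0.15 (0.073 without WT1). PXN (paxillin) was at 11.8 and 12.1 CPM in the WT pair against 13.96 and 19.2 CPM in TG1 and TG2. PTPN11, the phosphatase SHP2, was at 403 and 386 CPM in the WT pair against 439 and 462 CPM. Both genes were higher in both transgenic libraries, and neither passed (adjusted p = 0.79 for each in edgeR).

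Where TG1 was left out, 24 of the 138 pathway genes passed in edgeR, 8 higher and 16 lower, which is 17.4% beside 9.92% of all genes tested. In the integrin list it was 2 higher and 8 lower of 19. Among these, TNS3, a tensin that links integrins to actin, was at 94.3 and 87.7 CPM in wild type, 79.4 CPM in TG1 and 13.7 CPM in TG2. ITGB5, an integrin β chain, was at 39.3 and 35.3 CPM in wild type, 31.1 CPM in TG1 and 8.86 CPM in TG2, and PARVA, a partner of integrin-linked kinase, at 116 and 106 CPM, 102 CPM and 52.3 CPM. These 3 genes were chosen after their values were seen. The fit without TG1 sets TG2 alone against the wild-type pair, and the lists were chosen with earlier results known. The shares of the lists beside all genes are therefore a description of TG2 only. With TG2 left out instead, 0 of 138 passed, and 0 of the 7 members, beside 0.0175% of all genes tested.

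**Figure D4:**
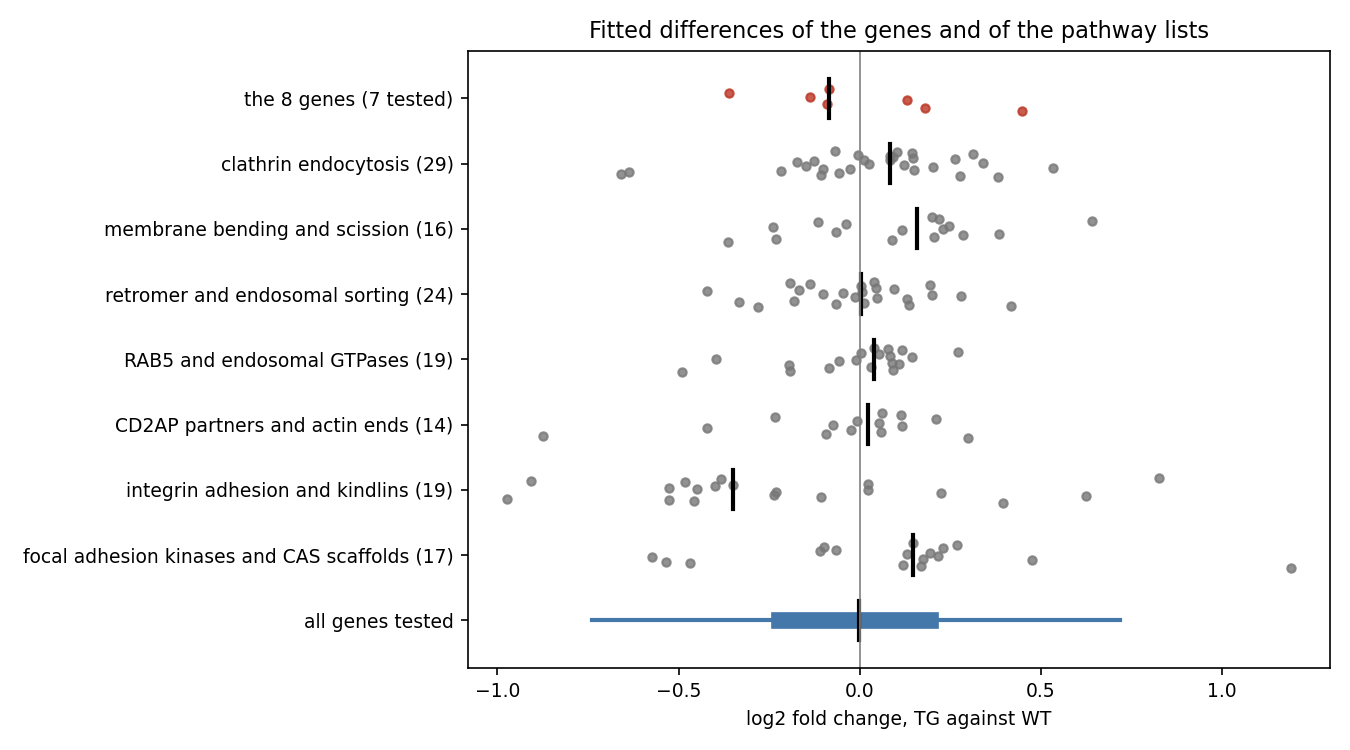
Fitted log2 fold change of transgenic against wild type (horizontal axis) for each gene of the 8-gene set and of 7 pathway lists. Points are genes, vertical bars are list medians, and the lowest line shows all genes tested (thick part, middle 50%; thin part, 5th to 95th percentile). The integrin adhesion list has its median at -0.35, and the other lists and the members have medians between -0.08 and 0.16.

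Among 206 pathway and marker genes with a mean count of at least 50, likeness to each member was measured as the root-mean-square difference of centred log2 CPM over the 4 libraries. This describes 4 points that share the same libraries. BIN1 was nearest to CLTC, the clathrin heavy chain (0.012), and to PTK2 (0.024), and CLTC was at 737 and 690 CPM in the WT pair against 721 and 920 CPM in TG1 and TG2. PICALM was nearest to the inhibitory neuron marker SLC32A1 (0.023) and to STAM, an endosomal sorting gene (0.026). CD2AP was nearest to EPN2 (0.042) and VCL (0.061), and SORL1 to FCHO1 (0.053) and EPN1 (0.058). PTK2B was nearest to SORCS3 (0.056) and then, less closely, to CDH5 (0.13), the 1 endothelial marker of 9 with a fitted difference above 0 (log2 fold change 0.32, against a median of -0.69 for the 9). FERMT2 was nearest to CARMIL1 (0.029) and SORCS2 (0.048). RIN3 was nearest to SORCS1 (0.12) and CAMK2A (0.14), at larger differences than the nearest gene of any other member.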

How the data were processed

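RNA of frontal cortex was sequenced in 4 libraries, 2 per genotype. The authors deposited raw counts, whole numbers per gene symbol with no normalization and 1 column per library. The tools listed in the submitters' processing notes, with no roles, are featureCounts 1.5.2, kallisto 0.46.2 and STAR 2.5.3a. The sources used here give no strandedness, annotation or genome build. No coordinates are printed, and reads of overlapping or antisense genes cannot be told apart. Levels are not compared between genes, as transcript lengths were not used.

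After filterByExpr, 16385 genes remained, and TMM factors scaled the library sizes. Genotype was the only term in the quasi-likelihood test (edgeR 4.0.16, R 4.3.3), and the Benjamini-Hochberg adjustment ran across every gene that remained. SE is the fitted log2 fold change divided by the square root of F. Intervals use the t distribution on the fit's total degrees of freedom (median 5.32). An exact permutation test of 2 against 2 libraries cannot give a two-sided p below 0.33 and was not run. Deviations use log2 CPM with a prior count of 2. Alternatives were DESeq2 1.42.0, limma-voom (limma 3.58.1), other scalings, other count filters, replicate blocks and leaving out each library. The steps were run on simulated counts. The changes planted there were larger than those fitted for the members, and no library was set apart as TG2 is. That run therefore does not check results like those of the members.

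The members and lists were chosen with earlier results of these data known. The text names the members, their relatives, APP, the 3 genes of each list with the smallest p and the 2 genes most like each member, and says where others were chosen after their values were seen. A count of 3 corresponds to 0.166 to 0.232 CPM.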

Additional observations from a re-analysis of the deposited data

How the results depend on the processing

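Over 12 alternatives for each of 7 members (84 values), 76 kept the direction and the side of the threshold, 6 changed sign and 2 passed the threshold. All 8 came from leaving out 1 library. The log2 fold change then ranged from -0.0024 to 0.34 for BIN1, from -0.32 to 0.11 for CD2AP, from -0.24 to 0.055 for SORL1, from -0.097 to 0.84 for PTK2B and from -0.38 to 0.15 for RIN3. It ranged from -0.80 to -0.027 for FERMT2 and from 0.11 to 0.15 for PICALM. The count of members called ranged from 0 to 2 and that of pathway genes from 0 to 24 with a library left out, and both were 0 under the other alternatives. Over all genes, edgeR called 0, DESeq2 46 and edgeR with no low-count filter 5, and leaving out a library gave 0 to 1710, with 3 without TG2 and 1710 without TG1. The cause was not tested. A group left with 1 library was assumed to vary like the other.

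The replicate numbers do not pair the libraries by any label. The deviations of WT1 and TG1 from their group means had a correlation of -0.137 over genes. With the replicate number as a block, edgeR called 0 genes, members and pathway genes. With the numbers crossed, an alternative chosen after the data were seen, it also called 0. With 2 libraries per group the fit has 2 residual degrees of freedom, and CASS4 and RIN3 are limited by depth as well.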

Other observations

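The kindlin and amphiphysin relatives of blood-cell lineages and microglia, FERMT3 (kindlin-3) and BIN2, stood apart in TG2 in the opposite direction to the microglia markers. In TG1 they went in the same direction as those markers. FERMT3 deviated there by -1.26 and BIN2 by -0.94 from the wild-type mean on the log2 scale, beside -0.86 for the median microglia marker. Counts were low, 19 in TG1 and 199 in TG2 for FERMT3 and 28 and 199 for BIN2. FERMT3 was at 3.56 and 3.51 CPM in WT1 and WT2 and at 1.40 and 11.02 CPM in TG1 and TG2. BIN2 was at 3.10 and 5.34 CPM in the WT pair against 2.06 and 11.02 CPM in TG1 and TG2. For both genes TG1 was the lowest and TG2 the highest of the 4 libraries. Neither passed in edgeR's quasi-likelihood test (adjusted p = 0.83 for FERMT3 and 0.85 for BIN2). Without TG1 both passed as higher (adjusted p = 0.011 and 0.047 in edgeR), with log2 fold changes of 1.64 ± 0.27 and 1.38 ± 0.35 (SE), in a fit of TG2 alone against the wild-type pair that called 9.92% of all genes tested. Without TG2 the signs turned, to -1.34 ± 0.44 for FERMT3 and -1.04 ± 0.48 for BIN2, and neither passed (adjusted p = 0.93 and 0.97 in edgeR). The summed level of the 12 microglia markers was 145 CPM in TG1 and 134 CPM in TG2, below the 227 and 272 CPM of the wild-type libraries. Of 3 blood markers listed, 1 was found among the counted genes. That marker was at 14.5 and 1.02 CPM in WT1 and WT2 and at 0.514 and 6.09 CPM in TG1 and TG2. It was lowest in TG1, like FERMT3 and BIN2, but highest in WT1. The part of blood cells or microglia in the values of FERMT3 and BIN2 was not tested.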
